A study of Mus musculus with 8 samples.

Results

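The genes that encode cytosolic translation initiation factors (Eif genes) and elongation factors (Eef genes) were followed in mouse quadriceps femoris muscle, a large thigh muscle, with or without skeletal muscle deletion of Grpel1, which encodes a co-chaperone of the mitochondrial matrix Hsp70. The members were all genes of the count table whose symbol starts with Eif or Eef and a number, without the Eif2ak kinases, of which 4 were in the table, and without pseudogenes. This gave 60 of 14012 genes, namely 47 initiation factor genes, 6 elongation factor genes, 3 Eif4ebp genes and 4 genes of enzymes or other proteins that carry an Eef symbol. Every Eif gene but the Eif4ebp genes was counted as an initiation factor by its symbol. This holds also for Eif5a, Eif5a2, Eif4a3 and Eif1ad, and the counts and medians by class depend on it. The symbols alone chose the members, with no filter on a measured value. The family and the lists used beside it were taken up with earlier results of these data known.

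Polyadenylated RNA was sequenced from 4 mice labelled KO (Grpel1 smk -/-) and 4 mice labelled WT (Grpel1 flox/flox), with 1 library per mouse. All 8 mice carried the floxed gene. In the knockout mice a Cre recombinase that is made under the human skeletal actin promoter and needs tamoxifen to act deletes it in muscle fibres, so that the other cells of the muscle keep it. The knockout mice received tamoxifen when young, and muscle was taken within weeks of it. The study calls floxed littermates untreated where it follows body weight. Its weight curves also hold floxed mice with tamoxifen but no Cre, floxed Cre mice with no tamoxifen, and wild type Cre mice with tamoxifen. Whether the sequenced control mice carried Cre or received tamoxifen was not stated for the libraries, so an effect of either cannot be told apart from that of the deletion.

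Translation of most mRNAs starts when eIF4F (the cap-binding eIF4E, the scaffold eIF4G and the helicase eIF4A) brings the mRNA to a small ribosomal subunit that carries eIF1, eIF1A, eIF3, eIF5 and eIF2 with the initiator tRNA. The 4E-BP proteins, encoded by the Eif4ebp genes, bind eIF4E and keep eIF4G away from it until mTORC1 phosphorylates them. In elongation eEF1A delivers aminoacyl-tRNA, eEF1B recharges eEF1A with GTP, and eEF2 moves the ribosome along the mRNA and is inhibited by the kinase eEF2K. Skeletal muscle is known for an exchange of eEF1A forms after birth, in which eEF1A2 takes the place of eEF1A1, and for stress responses that phosphorylate eIF2 and raise the translation of ATF4.

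The libraries held 16017565 to 20361144 counts on the genes of the table. Grpel1 itself had 68.4 ± 3.04 CPM (counts relative to library size; mean ± SD, n = 4) in the controls and 65.3 ± 6.11 CPM in the knockouts, with a log2 fold change of -0.066 (SE 0.0782, adjusted p = 0.487), so its whole-gene count did not check the labels and every direction given here rests on them. The paper describes Fgf21 and Gdf15 as nearly absent from healthy muscle. They had means of 0 and 0.0696 CPM in the libraries labelled control and 26.35 and 53.24 CPM in those labelled knockout. Levels are CPM after scaling by edgeR's trimmed mean of M-values (TMM), and a gene was called changed at an adjusted p under 0.01 in the quasi-likelihood test of edgeR, adjusted by Benjamini and Hochberg's method over all 14012 genes. An unadjusted p under 0.05 was reached by 8910 of the 14012 genes. Of all genes 44.7% were called, 3303 (23.6%) higher and 2962 (21.1%) lower in the knockout libraries, with a median log2 fold change of 0.065. Scaling by library totals alone moved this median by 0.67, to 0.73, and the split to 8498 higher and 873 lower, so directions are relative to the median gene. Since this scaling moves all genes by nearly the same amount, a gene's side of the median is fixed by construction, and 38 of the 60 members lay above it.

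The summed level of 7 mature muscle fibre markers was 198000 to 255600 CPM in control and 69060 to 98310 CPM in knockout libraries, with 6 of 7 lower and the fast myosin Myh1 higher (log2 fold change 1.15, adjusted p = 0.0017), so both groups carried the markers of the labelled tissue. Markers of satellite cells and regenerating fibres (Pax7, Myf5, Myod1, Myog and the embryonic and perinatal myosins Myh3 and Myh8) summed to 32.9 to 39.9 CPM in control and 762 to 1610.0 CPM in knockout libraries, with 4 of 6 higher. Pax7 (log2 fold change 0.28, adjusted p = 0.28) and Myod1 (0.14, adjusted p = 0.68) were not called, and Myh8 and Myh3 had the highest knockout means of the 6 (673 and 312 CPM). Endothelial markers were lower for 5 of 6 genes (282.7 to 421.9 against 205.4 to 231.0 CPM), fibroblast markers for 3 of 6 (1322 to 1857 against 547 to 809.8 CPM), and macrophage markers higher for 1 of 7 with edgeR and 3 of 7 with DESeq2 (38.5 to 97.1 against 87.0 to 155.9 CPM). Neither the 6 adipocyte markers (247.7 to 1459 against 685 to 2481 CPM) nor the 4 Schwann cell markers (25.8 to 86.3 against 39.3 to 64.6 CPM) held a called gene with edgeR or DESeq2, with 0 and 1 of them at an unadjusted p under 0.05. Of 4 T cell markers Cd3e was in the table and was lower, at 1.04 against 0.168 CPM. No marker in the table was at 0 in every library, and in whole muscle fewer cells of a type and less RNA per cell cannot be told apart.

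Among the 60 members 23 (38.3%) were higher and 8 (13.3%) were lower in the knockout libraries, beside 23.6% and 21.1% of all genes, and their median log2 fold change was 0.22. Every knockout library lay above every control library for 31 members and below for 9, where 29% and 24.4% of all genes did so. The initiation factors had 18 of 47 higher and 5 lower with a median of 0.23, the elongation factors 3 of 6 higher and none lower with a median of 0.52, and the Eif4ebp genes 1 higher, 1 lower and 1 not called with a median of -0.26. All 6 elongation factors had an unadjusted p under 0.05, which 8910 of the 14012 genes had too. Of the 6 factors 1, Eef1a2, had a negative log2 fold change, which was not called with edgeR but was called lower with DESeq2. The share of all counts that fell on the 60 genes was 0.958, 0.942, 0.95 and 0.951% in the controls and 1.99, 1.98, 2.14 and 2.16% in the knockouts. The groups did not overlap, but on this scale of library totals the median gene also lay higher, by 0.73 on the log2 scale. The part of Eef1a1 alone was 0.0298 ± 0.0054% (SD, n = 4) of a control library and 0.361 ± 0.0138% of a knockout library.

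**Figure D1:**
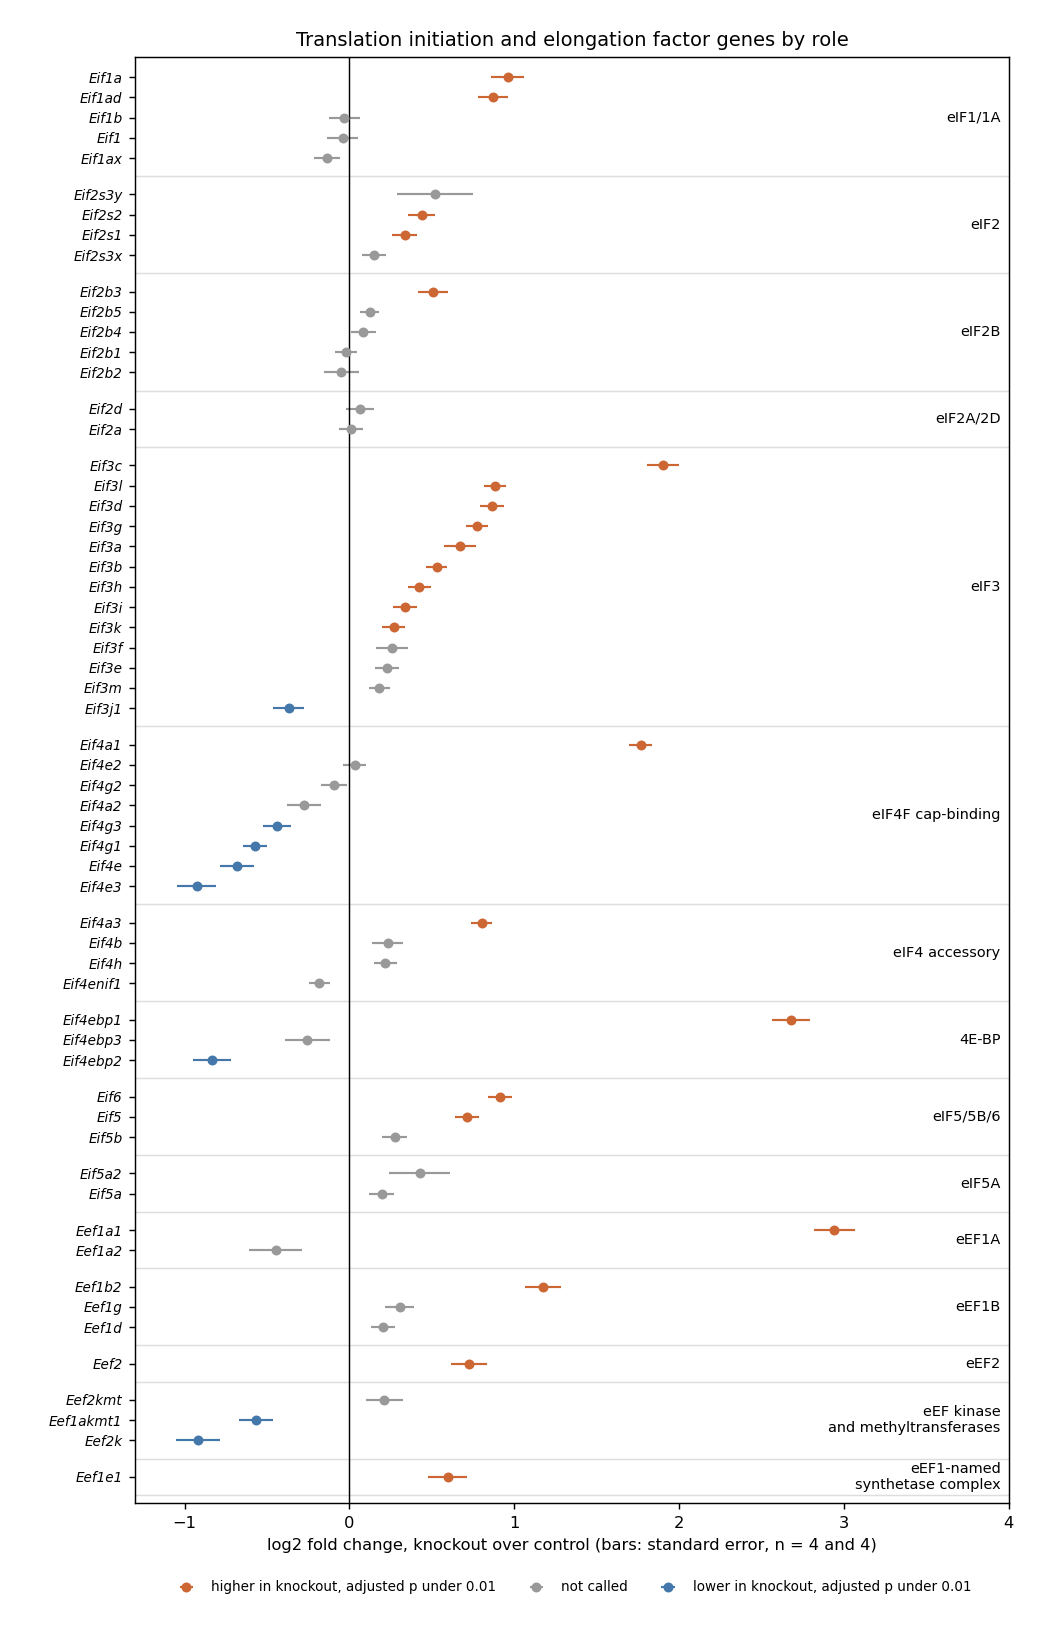
The log2 fold change of 59 member genes, knockout over control, is plotted on the horizontal axis by role, with bars of 1 SE from edgeR (n = 4 and 4) and colours for genes called higher, lower or not called at an adjusted p under 0.01; Eif3j2 is left out for its low counts. Eef1a1, Eif4ebp1, Eif3c and Eif4a1 lie farthest to the right, at 2.94, 2.68, 1.90 and 1.77, and most eIF4F genes lie left of 0, a side that Eif4g1, Eif4g2, Eif4g3 and Eif4a2 leave when libraries are scaled by their totals alone.

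The eEF1A genes changed places as the main eEF1A transcript. Eef1a1 (Entrez Gene 13627, chr9:78478453-78481724 on GRCm38), the form that most tissues make, and Eef1a2 (Entrez Gene 13628, chr2:181147692-181157015), the form of adult muscle and neurons, encode near-identical proteins. Their coding sequences were 1386 and 1389 bases long in GENCODE vM21 and matched at 79.9% of the first 1386 bases, with no identical run longer than 23 bases, so that reads of 75 bases within these coding sequences tell the genes apart. The first 90 coding bases of each, from chr9:78480565-78480654 and chr2:181155317-181155406, both on the minus strand of GRCm38, are shown with the 15 differing bases in capitals.
Eef1a1: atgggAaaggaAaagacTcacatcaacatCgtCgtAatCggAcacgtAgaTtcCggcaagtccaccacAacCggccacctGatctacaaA
Eef1a2: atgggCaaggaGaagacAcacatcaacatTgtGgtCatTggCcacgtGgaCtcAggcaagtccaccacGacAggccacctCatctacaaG

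Eef1a1 had 4942, 5704, 4188 and 6668 counts in the 4 control libraries, in order of replicate number, and 68697, 57581, 73777 and 73512 in the 4 knockout libraries. On the scaled level these were 399, 373, 299.7 and 420.2 CPM and 2864, 2637, 3045 and 2922 CPM. The groups lay far apart, and the mean rose 7.68-fold, from 373 ± 52.5 to 2867 ± 171 CPM (SD, n = 4; log2 fold change 2.94, SE 0.123, adjusted p = 1.2e-07). Eef1a2 had 2122, 2101, 2375 and 1879 CPM in the control libraries and 1537, 1126, 1983 and 1565 CPM in those of the knockouts. Knockout replicate 3 reached into the control range, and with a log2 fold change of -0.45 (SE 0.158, adjusted p = 0.033) Eef1a2 was not called. It was called lower without knockout replicate 3 (-0.62, adjusted p = 0.0039), and its sign turned to 0.21 with library totals alone.

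Within each library, where no scaling enters, the ratio of Eef1a1 to Eef1a2 per kb of exon was 0.215, 0.203, 0.144 and 0.256 in the controls and 2.13, 2.68, 1.76 and 2.13 in the knockouts. Eef1a2 was thus the more abundant transcript in every control library and Eef1a1 in every knockout library. Eef1a1 made up 16.9 ± 3.22% (SD, n = 4) of the pair in the controls and 68.2 ± 3.71% in the knockouts, while the sum of both genes went from 1244 ± 72.4 to 2361 ± 265 CPM per kb. The mean ratio, taken on the log2 scale, was 10.7 times as high in the knockouts (exact permutation test of 4 against 4, two-sided, p = 0.0286, the smallest p this design allows; 0.0571 after Benjamini-Hochberg adjustment over 8 pairs, which misses 0.05). In the order of the members by level per kb Eef1a1 moved from rank 5 to rank 1 and Eef1a2 from rank 1 to rank 3, with Eef2 at rank 2 in both groups. Of the 75-base windows of Eef1a1 transcripts 36.8% also occur in transcripts of 14 other genes, and the authors left out reads that map to several places, so the level of Eef1a1 per kb may be understated in both groups. None of the windows of Eef1a2 is shared.

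**Figure D2:**
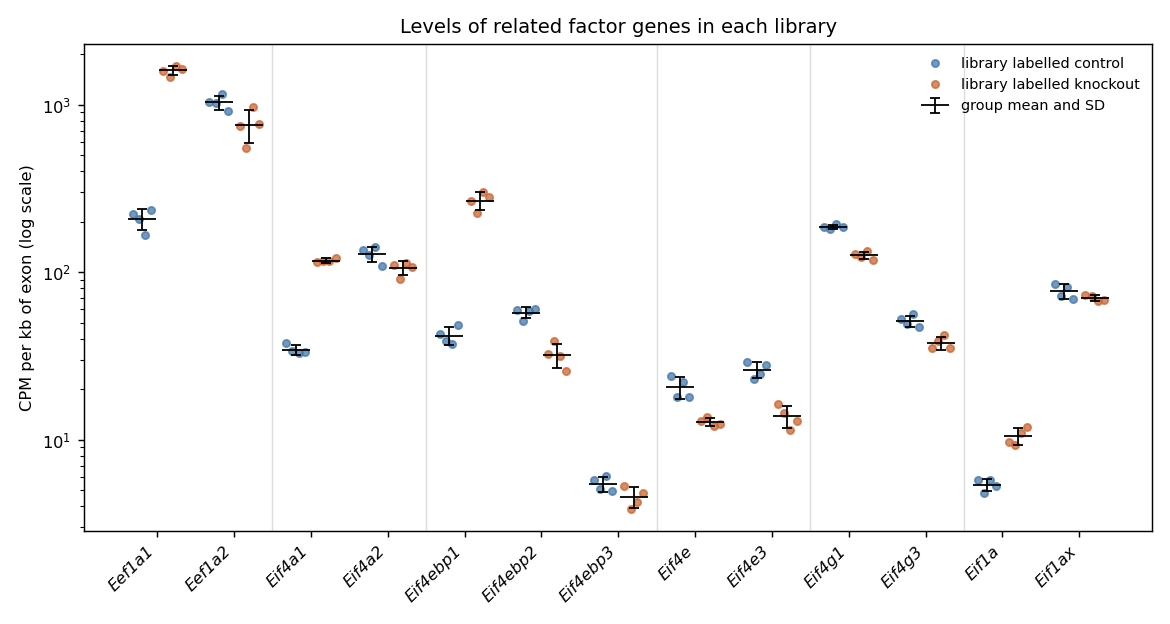
Level of 13 related factor genes in CPM per kb of exon on a log axis, with 1 point per library (blue, labelled control; orange, labelled knockout) and bars for the mean and SD of 4 libraries. Eef1a1, Eif4a1, Eif4ebp1 and Eif1a lie higher in every knockout library than in any control library. On this scale Eef1a1 and Eif4a1 reach the level of their partner genes there. For Eif4a1 this rests on the exon widths, as it stays under Eif4a2 in CPM.

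The RefSeq table of GRCm38.p6 holds the 250 bases before the start of Eef1a1 and Eef1a2 and of Eif4a1 and Eif4a2, the helicase pair described further on. They are shown because the ratio within each pair separated the groups and both genes had a window. The ratios Eif4ebp1/Eif4ebp2 and Eif1a/Eif1ax separated the groups too, but Eif4ebp1 and Eif1a had no window. The bases are given 5′ to 3′ on the strand of the gene, with the motif CACGTG, the canonical E-box, in capitals.
Eef1a1, chr9:78481725-78481974, minus strand: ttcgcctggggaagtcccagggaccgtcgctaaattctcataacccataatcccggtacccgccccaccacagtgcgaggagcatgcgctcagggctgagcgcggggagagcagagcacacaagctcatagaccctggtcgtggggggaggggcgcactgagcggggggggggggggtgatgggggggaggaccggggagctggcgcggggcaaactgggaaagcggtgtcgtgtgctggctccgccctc
Eef1a2, chr2:181157016-181157265, minus strand: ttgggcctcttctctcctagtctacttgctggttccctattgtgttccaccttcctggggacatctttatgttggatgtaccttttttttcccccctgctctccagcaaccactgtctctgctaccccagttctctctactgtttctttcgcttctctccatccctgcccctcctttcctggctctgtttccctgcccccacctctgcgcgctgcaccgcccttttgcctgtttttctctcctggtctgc
Eif4a1, chr11:69672424-69672673, minus strand: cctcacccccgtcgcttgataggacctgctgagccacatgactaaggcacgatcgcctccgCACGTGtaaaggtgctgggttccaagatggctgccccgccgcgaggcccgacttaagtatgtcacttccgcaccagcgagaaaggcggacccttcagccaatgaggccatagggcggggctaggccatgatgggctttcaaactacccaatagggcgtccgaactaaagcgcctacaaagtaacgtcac
Eif4a2, chr16:23107218-23107467, plus strand: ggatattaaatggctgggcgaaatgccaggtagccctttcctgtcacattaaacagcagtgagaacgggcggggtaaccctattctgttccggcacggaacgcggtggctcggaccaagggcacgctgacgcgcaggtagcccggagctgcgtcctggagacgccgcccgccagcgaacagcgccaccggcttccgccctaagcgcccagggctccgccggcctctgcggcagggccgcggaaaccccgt

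The Eef1a1 window was 68% G or C and the Eef1a2 window 54%, where the median of 10678 table genes was 59.6%. The Eef1a2 window was rich in C and T (76.8%, against 40.4% for Eef1a1 and a median of 50% over the table genes). CACGTG was found, counting both strands, which read alike, in the 300-base windows (250 bases before to 50 after the start) of 12 of the 46 members with a window (26.1%) and of 11.6% of the table genes. The 12 were Eef2, Eef2k, Eif1b, Eif3a, Eif3f, Eif3k, Eif4a1, Eif4e, Eif4g1, Eif4h, Eif5a and Eif5a2, a group that holds members called higher, lower and not called. TGATGNAA, the core of the C/EBP-ATF response element, was found on either strand in the windows of Eef2k and Eif2s3x, 4.35% of the 46 members beside 2.75% of the table genes. Eif4ebp1 had no window, so neither motif was searched for in it.

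The other elongation factors were higher or not called. Eef1b2, the exchange factor subunit of eEF1B, had 145, 126, 145 and 104 CPM in the control libraries and 286, 278, 294 and 316 CPM in those of the knockouts. It rose 2.26-fold with no overlap (log2 fold change 1.18, SE 0.109, adjusted p = 1.1e-05). Eef2, the translocase, had 1674, 1559, 1703 and 1572 CPM in the control libraries and 2582, 2293, 3116 and 2778 CPM in those of the knockouts, again with no overlap (log2 fold change 0.73, SE 0.108, adjusted p = 0.00026). The other eEF1B subunits moved less and were not called. Eef1g, a structural subunit, had 359, 340.3, 341 and 286 against 412, 377, 424 and 424 CPM (log2 fold change 0.30, SE 0.087, adjusted p = 0.012), and Eef1d, the second exchange subunit, had 115, 118, 127 and 104 against 132, 130.3, 139 and 135 CPM (log2 fold change 0.21, SE 0.0726, adjusted p = 0.032). In both genes every knockout library lay above every control library. Of the windows of Eef1g transcripts 56.5% also occur in other genes.

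Beside the rise of Eef2, the gene of its inhibitory kinase fell. Eef2k had 114, 82.03, 106 and 91.2 CPM in the control libraries and 59.9, 53.6, 53.8 and 40.9 CPM in those of the knockouts. All knockout libraries lay below all control libraries (log2 fold change -0.92, SE 0.134, adjusted p = 0.00022; -0.25 with library totals alone, where it was not called). Eef1akmt1, a lysine methyltransferase of eEF1A, had 17.9, 17.5, 17.4 and 14.1 CPM in the control libraries and 11.8, 9.98, 11.4 and 11.96 CPM in those of the knockouts. It fell relative to the median gene (log2 fold change -0.57, SE 0.105, adjusted p = 0.001), while its sign turned to 0.10 with library totals alone. Eef2kmt, which methylates eEF2, was not called (log2 fold change 0.21, SE 0.111, adjusted p = 0.13). Eef1e1, which despite its symbol encodes a scaffold protein of the multi-synthetase complex, had 16, 13.1, 17.03 and 11.8 CPM in the control libraries and 22.3, 20.4, 22.6 and 22.1 CPM in those of the knockouts, with no overlap (log2 fold change 0.60, SE 0.117, adjusted p = 0.0015).

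The eIF4F genes went in different directions, with 1 of 8 higher and 4 lower. Eif4a1 (Entrez Gene 13681, chr11:69666936-69672423), the helicase form of proliferating cells, had 71.2, 63.4, 61.8 and 63.1 CPM in the control libraries and 215, 218, 219 and 230.1 CPM in those of the knockouts. The groups were far apart and the mean rose 3.4-fold (log2 fold change 1.77, SE 0.0689, adjusted p = 8.5e-08). Eif4a2, the helicase form that predominates in adult muscle and brain, had 432, 403, 450.2 and 349 CPM in the control libraries and 354, 291, 362 and 343 CPM in those of the knockouts. The groups overlapped and it was not called (log2 fold change -0.28, SE 0.102, adjusted p = 0.039; 0.39 with library totals alone, where it was called higher, and -0.32 with an adjusted p of 0.0086 in DESeq2).

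The ratio of Eif4a1 to Eif4a2 per kb was 0.279, 0.266, 0.232 and 0.306 in the controls and 1.03, 1.27, 1.02 and 1.14 in the knockouts. Eif4a1 thus went from 21.3 ± 1.91% to 52.6 ± 2.5% of the pair, while their sum went from 163 ± 14.6 to 223 ± 10.9 CPM per kb. These shares rest on the deposited exon widths, 1880 bases for Eif4a1 and 3185 for Eif4a2. In CPM, without that division, Eif4a2 stayed above Eif4a1 in every knockout library (means of 337.5 and 220.6 CPM). The fold change of the ratio does not depend on the widths. The change of the ratio was 4.12-fold (exact permutation p = 0.0286, adjusted 0.0571 over the 8 pairs). Of the windows of Eif4a1 transcripts 62.9% and of those of Eif4a2 7.96% also occur in other genes, so the share of Eif4a1 may be understated in both groups.

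Of the 6 cap-binding and scaffold genes 4 were lower, where 21.1% of all genes were. Eif4e, the cap-binding protein, had 123, 92.04, 113 and 92.2 CPM in the control libraries and 66.1, 70.02, 61.7 and 63.9 CPM in those of the knockouts (log2 fold change -0.68, SE 0.103, adjusted p = 0.00028; -0.007 with library totals alone, where it was not called). Eif4e3, a muscle-rich relative of Eif4e, had 72.8, 57.8, 62.3 and 70.6 CPM in the control libraries and 41.1, 36.3, 28.7 and 32.4 CPM in those of the knockouts. Its log2 fold change, -0.93 (SE 0.118, adjusted p = 9e-05), lay within the SE of that of Eef2k, the next lowest, and it was not called with library totals alone (-0.26). For the third cap-binding gene, Eif4e2, whose product is linked to translational repression, the log2 fold change was 0.03 (SE 0.0703, adjusted p = 0.72).

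Eif4g1, the main scaffold, had 1015, 988, 1053 and 1019 CPM in the control libraries and 702, 674, 725 and 641 CPM in those of the knockouts. Eif4g3, its relative, had 330.3, 311, 355 and 299 CPM in the control libraries and 222, 246, 265 and 223 CPM in those of the knockouts. Neither gene's groups overlapped (log2 fold change -0.57, SE 0.0746, adjusted p = 0.00011, and log2 fold change -0.44, SE 0.0862, adjusted p = 0.0016), and their signs turned to 0.09 and 0.23 with library totals alone. Together they went from 239 ± 8.22 to 164 ± 9.03 CPM per kb. Eif4g2, which supports initiation without eIF4E, was not called (log2 fold change -0.10, SE 0.08, adjusted p = 0.33). Unlike the helicase pair, the ratios of Eif4g1 to Eif4g3 (3.45 to 3.96 in the controls, 3.18 to 3.67 in the knockouts) and of Eif4e to Eif4e3 (0.642 to 0.891, and 0.79 to 1.06) overlapped between the groups (exact permutation p = 0.0857 each, adjusted 0.114).

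**Figure D3:**
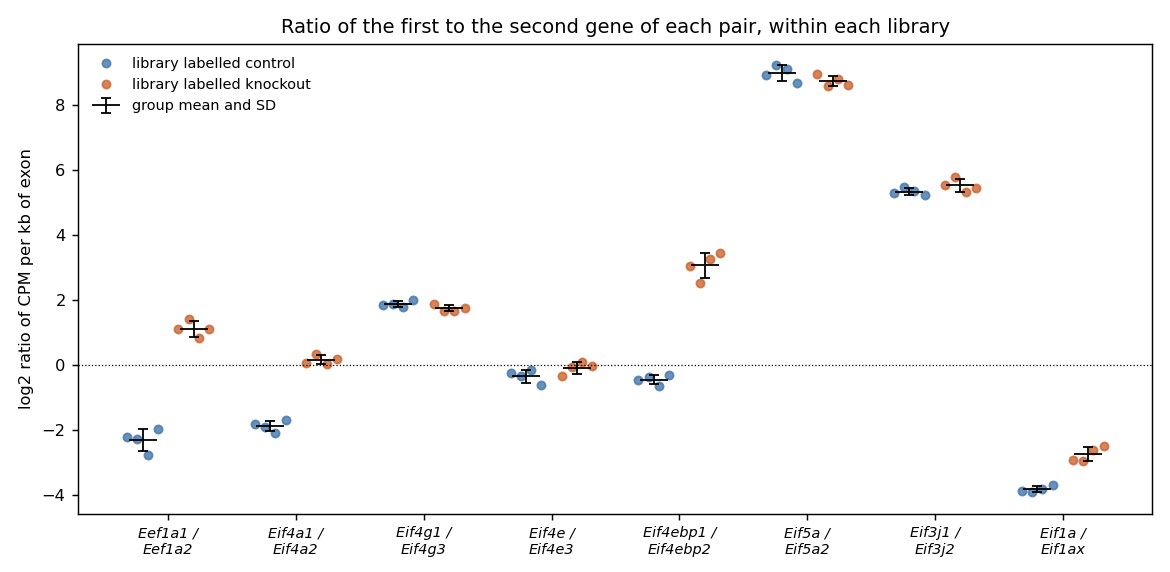
log2 of the ratio of the first to the second gene of 8 pairs, in CPM per kb of exon, with 1 point per library (blue, labelled control; orange, labelled knockout) and bars for the mean and SD of 4 libraries. The groups separate for Eef1a1/Eef1a2, Eif4a1/Eif4a2, Eif4ebp1/Eif4ebp2 and Eif1a/Eif1ax and overlap for the other 4 pairs.

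The Eif4ebp genes, whose products hold eIF4E back, split in the same manner. Eif4ebp1 (Entrez Gene 13685, chr8:27260327-27275656), a known target gene of ATF4, had 41.9, 38.4, 36.4 and 47.6 CPM in the control libraries and 261, 220.5, 294 and 276 CPM in those of the knockouts. It rose 6.4-fold (log2 fold change 2.68, SE 0.116, adjusted p = 1.4e-07). Eif4ebp2 had 106, 90.8, 105 and 108 CPM in the control libraries and 57.96, 69.4, 56.3 and 46.2 CPM in those of the knockouts. It fell with no overlap (log2 fold change -0.84, SE 0.116, adjusted p = 0.00016; -0.16 with library totals alone, where it was not called). Eif4ebp3 was low, at 6.62, 5.83, 7.01 and 5.67 CPM and 6.09, 4.44, 4.91 and 5.57 CPM, with overlapping groups (log2 fold change -0.26, SE 0.138, adjusted p = 0.14; 0.41 with library totals alone), and 64.2% of its windows also occur in another gene.

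The ratio of Eif4ebp1 to Eif4ebp2 per kb was 0.719, 0.769, 0.632 and 0.802 in the controls and 8.2, 5.78, 9.5 and 10.9 in the knockouts, an 11.5-fold change (exact permutation p = 0.0286, adjusted 0.0571 over the 8 pairs). Eif4ebp1 made up 39.9 ± 2.66% of the 3 genes in the controls and 87.8 ± 2.72% in the knockouts, and the sum of the 3 went from 105 ± 8.13 to 305 ± 28.1 CPM per kb. Set against Eif4e in the same library, this sum was 4.48, 5.28, 4.61 and 6.33 times the level of Eif4e in the controls and 23.5, 19.5, 27.8 and 24.99 times in the knockouts. The groups did not overlap. These are transcript levels, and neither the proteins nor their phosphorylation were measured in these libraries.

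The eIF3 genes, which encode the largest initiation factor, were mostly higher. Of the 14, 9 (64.3%) were called higher and 1 (7.1%) lower, beside 23.6% and 21.1% of all genes. All 14 had an unadjusted p under 0.05, as had 8910 of the 14012 genes. Eif3c (Entrez Gene 56347, chr7:126546911-126566366), a core subunit, had 203, 192, 201 and 188 CPM in the control libraries and 696, 639.9, 861 and 733 CPM in those of the knockouts, a 3.74-fold rise (log2 fold change 1.90, SE 0.0988, adjusted p = 3.7e-07). It stood apart from its partners. Its level per kb was 1.22, 1.28, 1.22 and 1.28 times the median of the other eIF3 genes (without Eif3j1 and Eif3j2, whose product is loosely bound) in the controls and 2.96, 3.04, 3.28 and 3.26 times in the knockouts. This ratio was set up after the values of Eif3c had been seen and is given without a test.

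The log2 fold changes of the other eIF3 genes called higher were 0.88 for Eif3l, 0.86 for the cap-binding subunit Eif3d, 0.78 for Eif3g, 0.67 for the scaffold Eif3a, 0.53 for Eif3b, 0.42 for Eif3h, 0.34 for Eif3i and 0.27 for Eif3k, with SEs of 0.0631 to 0.0962 and adjusted p of 3.1e-06 to 0.0076. Eif3e, Eif3f and Eif3m lay above 0 (0.23, 0.26 and 0.18) and were not called. Eif3j1 had 101, 95.6, 111 and 89.1 CPM in the control libraries and 77.02, 68.4, 86.5 and 75 CPM in those of the knockouts. It was the eIF3 gene called lower (log2 fold change -0.37, SE 0.0922, adjusted p = 0.0061), but it missed the threshold when any one of control replicates 1 to 3 or of knockout replicates 1, 2 and 4 was left out, with an adjusted p of 0.013 to 0.018, and its sign turned to 0.30 with library totals alone. Its near-copy Eif3j2 had 32, 33, 38 and 38 counts in the controls and 40, 27, 53 and 43 in the knockouts, too few for a fold, and the genes share 51% and 87.4% of their windows with other transcripts.

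**Figure D4:**
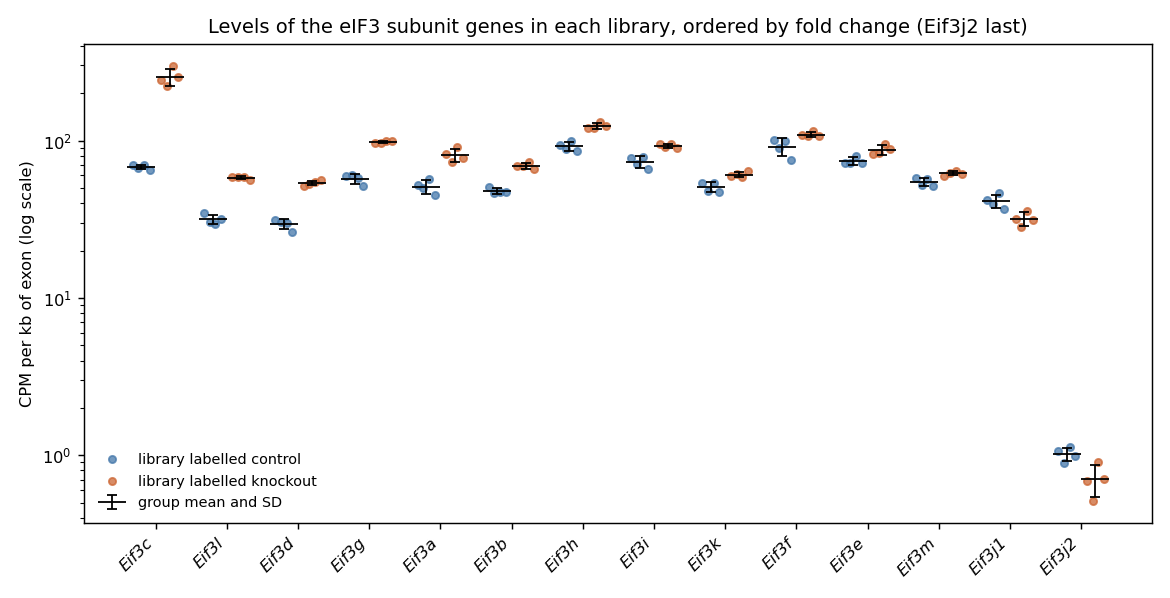
Level of the 14 eIF3 subunit genes in CPM per kb of exon on a log axis, with 1 point per library (blue, labelled control; orange, labelled knockout) and bars for the mean and SD of 4 libraries. Eif3c goes from 68.0 to 254.2 CPM per kb on average and is the most abundant of them in the knockout libraries, while Eif3h had the highest mean in the controls.

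Of the genes of eIF2, the initiator tRNA carrier, 2 of 4 (50%) were higher, and of those of its exchange factor eIF2B 1 of 5 (20%). The share of all genes was 23.6%, and the medians of the 2 groups were 0.39 and 0.08. Eif2s1, the alpha subunit that stress kinases phosphorylate, had 54.8, 52.2, 58.6 and 46.9 CPM in the control libraries and 69.9, 64.6, 68.3 and 65.2 CPM in those of the knockouts. It was called higher (log2 fold change 0.34, SE 0.0766, adjusted p = 0.0038), a call that was lost without control replicate 2 (adjusted p = 0.013), knockout replicate 1 (0.013) or knockout replicate 3 (0.010). Eif2s2, the beta subunit, had 206, 191, 206 and 179 CPM in the control libraries and 259, 239, 279.6 and 280.5 CPM in those of the knockouts and was called higher (log2 fold change 0.44, SE 0.0799, adjusted p = 0.00098). For the gamma subunit gene Eif2s3x the values were 29.8, 30.4, 30.8 and 29.6 CPM and 33.3, 32.4, 37.6 and 30.7 CPM, which overlapped (log2 fold change 0.15, SE 0.0735, adjusted p = 0.1), and its Y-linked copy Eif2s3y was not called either (log2 fold change 0.52, SE 0.233, adjusted p = 0.079). Of the 5 eIF2B subunits Eif2b3, the gamma subunit, was called, with 22.5, 19.97, 19.1 and 16.9 CPM in the control libraries and 28.5, 28.5, 26.9 and 27.4 CPM in those of the knockouts (log2 fold change 0.51, SE 0.0888, adjusted p = 0.00077). Eif2b1, Eif2b2, Eif2b4 and Eif2b5 had log2 fold changes between -0.05 and 0.12 with adjusted p of 0.093 to 0.82.

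The genes of eIF1, eIF1A, eIF5, eIF5B and eIF6, with the eIF1A-like Eif1ad, gave 4 of 8 higher and none lower with edgeR. The shares of all genes were 23.6% and 21.1%. DESeq2 gave the same counts for the 8 genes, and none of them was lower at an unadjusted p under 0.05. Eif1a had 16.5, 13.8, 16.5 and 15.3 CPM in the control libraries and 27.9, 26.8, 31.6 and 34.4 CPM in those of the knockouts (log2 fold change 0.96, SE 0.101, adjusted p = 2.5e-05). Its X-linked relative Eif1ax, also an eIF1A, had 79.2, 66.97, 75.8 and 64.3 CPM and 68.05, 66.8, 62.5 and 63.3 CPM and was not called (log2 fold change -0.13, SE 0.0795, adjusted p = 0.17; 0.54 with library totals alone, where it was called higher). The ratio of Eif1a to Eif1ax per kb was 2.12 times as high in the knockouts, at 0.0669, 0.0663, 0.0702 and 0.0766 in the controls and 0.132, 0.129, 0.163 and 0.175 in the knockouts (exact permutation p = 0.0286, adjusted 0.0571), and Eif1ax remained the more abundant in every library. Eif1ad, an eIF1A-like protein with a role in small subunit maturation, had 28.2, 21.7, 26.4 and 25.3 CPM in the control libraries and 47.03, 50.9, 43.4 and 44.5 CPM in those of the knockouts (log2 fold change 0.87, SE 0.0899, adjusted p = 2.2e-05). Its span overlaps that of Banf1. Eif1 and Eif1b, which guard start codon choice, lay at -0.04 and -0.03.

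Eif5, the GTPase-activating protein of eIF2, had 220.5, 190.1, 216 and 212 CPM in the control libraries and 354, 324, 359 and 339 CPM in those of the knockouts (log2 fold change 0.71, SE 0.0733, adjusted p = 2.1e-05). Eif6, which keeps the large subunit from joining early, had 36.2, 32.2, 30.6 and 34.8 CPM in the control libraries and 64.4, 64.4, 63.4 and 59.6 CPM in those of the knockouts (log2 fold change 0.91, SE 0.0705, adjusted p = 3.5e-06). In both genes the groups were well separated. Eif5b, the GTPase of subunit joining, narrowly missed the threshold (log2 fold change 0.27, SE 0.0757, adjusted p = 0.011), with all knockout libraries above all controls.

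Among the eIF4 accessory genes, Eif4a3, the helicase of the exon junction complex, had 31.2, 31.3, 34.2 and 31.2 CPM in the control libraries and 53.5, 56.8, 54.3 and 58.2 CPM in those of the knockouts and was called higher (log2 fold change 0.80, SE 0.0625, adjusted p = 3.6e-06). The helicase partners Eif4b (log2 fold change 0.23, SE 0.0944, adjusted p = 0.057) and Eif4h (log2 fold change 0.22, SE 0.0691, adjusted p = 0.021) and the eIF4E transporter Eif4enif1 (log2 fold change -0.18, SE 0.0637, adjusted p = 0.031) were not called. Of the eIF5A genes, whose products carry hypusine, neither was called with edgeR or DESeq2. Both had an unadjusted p under 0.05, which most genes of the table reached. Eif5a lay at 0.19 (SE 0.0733, adjusted p = 0.042) and the scarce Eif5a2, with 21 to 65 counts, at 0.43 (SE 0.185, adjusted p = 0.07). The ratios Eif5a/Eif5a2 and Eif3j1/Eif3j2 overlapped between the groups (exact permutation p = 0.143 each). Eif2a and Eif2d, alternative carriers of initiator tRNA, lay at 0.01 and 0.06.

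Termination and recycling factors gave 2 of 7 genes (28.6%) higher, near the 23.6% of all genes, and none lower with edgeR and DESeq2. These were the release factor Etf1 (0.44, SE 0.0841, adjusted p = 0.0013) and the recycling factor Abce1 (0.36, SE 0.0611, adjusted p = 0.00062). An unadjusted p under 0.05 was reached by 3 of the 7, all of them higher, beside 8910 of the 14012 genes. Poly(A)-binding and cap partner genes were divided relative to the median gene, with 5 of 16 (31.2%) higher and 6 (37.5%) lower, where 23.6% and 21.1% of all genes were, and a median log2 fold change of -0.002. Mknk1 and Mknk2, the kinases that phosphorylate eIF4E, were higher (1.09 and 0.76), while Pabpc1, a poly(A)-binding protein, was higher (0.60) and its relative Pabpc4 lower (-0.57). Paip2b, an inhibitor of poly(A)-binding protein, was lower (-0.94), as was Larp1, which binds mRNAs with a 5′ terminal oligopyrimidine tract (-0.43). The remaining called genes were Ncbp1 (0.67) and Ncbp3 (0.48), which were higher, and Paip1 (-0.37), Paip2 (-0.40) and Ddx3x (-0.38), which were lower.

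The rise of Eef1a1 beside Eef1a2, of Eif4a1 beside Eif4a2 and of Eif4ebp1 beside Eif4ebp2 was found in the same libraries in which regenerating fibre markers summed to 762 CPM or more and mature fibre markers to 98310 CPM or less. The part of these markers, and of the other cell types, in the results was not tested.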

How the data were processed

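One library per mouse was made from quadriceps femoris RNA of 4 mice labelled knockout and 4 labelled control. The authors sequenced read pairs of strand-specific libraries (NEBNext Ultra II Directional) of polyadenylated RNA. The deposited raw counts per gene came, per the labels and methods, from demultiplexing (bcl2fastq 2.20.0.422), trimming (cutadapt), alignment to GRCm38 (STAR 2.5.4b) and counting on exons (Rsubread), with duplicate, chimeric, multimapping and poorly mapped reads removed and genes of low total count left out. The annotation release and the use of strand in counting are not given in the sources used here. Of the members 8 overlap the span of another gene of the table. The authors also deposited FPKM values of these genes, which served as an alternative for the ratios. The deposited exon widths are the authors' summed exon bases per gene. The deposited fold changes, p-values and mean signal are the authors' own DESeq2 1.32.0 output and were not used.

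The raw counts of all 14012 genes were fitted in R 4.3.3 with edgeR 4.0.16 (TMM factors, quasi-likelihood test, group as the only term, Benjamini-Hochberg adjustment over all genes, adjusted p under 0.01). The TMM factors bear on every level, because the abundant muscle transcripts take up less of the knockout libraries. Levels between genes were compared as CPM per kb of exon. Ratios of paralogues were tested by exact permutation (70 ways to assign 4 against 4). A member with a mean count under 50 in both groups got counts only. Replicates differed by more than counting noise (chi-square per degree of freedom of 18.1 or more), so none is a copy of another. The labels give each library an animal of its own. The members and lists were chosen with earlier results of these data known. Values in every library are given for all elongation factor subunits, Eef2k, the Eif4ebp genes, Eif2s1, Eif2s2, Eif2s3x, the eIF4F subunits, the pairs whose ratio did not overlap, and the called member with the largest and the smallest fold change in each role, 30 genes in all. Promoter windows were taken from RefSeq for GRCm38.p6, which matched 46 of the 60 members, and transcripts from GENCODE vM21. Eef1akmt1, Eef1d, Eef1g, Eif1a, Eif2b3, Eif3e, Eif3h, Eif3i, Eif3j2, Eif4e3, Eif4ebp1, Eif4ebp3, Eif4g2 and Eif6 had no window. Of 75-base windows of the members' transcripts, 25 members shared none with another gene and 15 shared over 10%.

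Alternatives were RLE factors (edgeR's form of DESeq2's size factors), upper-quartile factors, library totals alone, DESeq2 1.42.0, a filter on low counts (filterByExpr), an adjusted p under 0.05, the replicate number as a block, the adipocyte markers as a covariate (mean log2 CPM with a prior count of 2), each library left out in turn and, for the ratios, a prior count of 2 and the FPKM values.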

Additional observations from a re-analysis of the deposited data

Results flagged for a closer look

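Among 76 groups of 4 libraries, the 30 genes named with values in every library and the 8 ratios in each group, 3 held a library far from the other 3 by Dixon's test at the 95% level, which chance gives for about 1 in 20 groups. Eif4a1 had 71.25 CPM in control replicate 1, above the other controls at 61.8 to 63.4 CPM and far under the knockouts. Eef1akmt1 had 14.05 CPM in control replicate 4, under the other controls at 17.4 to 17.9 CPM and above the knockouts. Eif4a3 had 34.21 CPM in control replicate 3, above the other controls at 31.2 to 31.3 CPM and under the knockouts. In none of the 3 genes did this library change the separation of the groups.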

How the results depend on the processing

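Library totals alone changed most: 8498 genes were called higher and 873 lower, the log2 fold change of all genes had a median of 0.73, and 50 members were higher and 0 lower (median 0.89), with 42 initiation factors (median 0.89) and 5 elongation factors (median 1.18) higher, 0 initiation factors and 0 Eif4ebp genes lower, and a median of the Eif4ebp genes that turned to 0.41. Among the 30 genes given in every library, the signs turned for Eef1a2 (0.21), Eif4ebp3 (0.41), Eif4a2 (0.39), Eif4g1 (0.095), Eif4g3 (0.23), Eif1ax (0.54), Eef1akmt1 (0.10) and Eif3j1 (0.30). With RLE factors the median of all genes was 0.020, with upper-quartile factors 0.097 and with DESeq2 0.021, and DESeq2 called 1 elongation factor, Eef1a2, lower. At an adjusted p under 0.05, 8 initiation factors and 1 elongation factor were lower and 5 elongation factors higher. Leaving out 1 library at a time gave 20 to 24 members higher and 7 to 9 lower (initiation factors 15 to 19 and 4 to 5, elongation factors 3 and 0 to 1), log2 differences of 3.27 to 3.54 for Eef1a1/Eef1a2, 1.97 to 2.10 for Eif4a1/Eif4a2, 3.40 to 3.70 for Eif4ebp1/Eif4ebp2 and 1.01 to 1.15 for Eif1a/Eif1ax, each with an exact p of 0.0571, the smallest that 3 against 4 allows. The prior count left these 4 pairs apart, and the FPKM values gave the same ratios by construction.

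Libraries with the same replicate number correlated at 0.252, 0.0369, 0.523 and 0.152 in their deviations from the group means. Knockout replicates 1, 3 and 4 correlated best with the control of the same number, and knockout replicate 2 with control replicate 4 (0.139). The labels name no pairs, so the main test left the numbers out and whether they pair the mice stays unsettled. With the replicate block 22 members were higher and 8 lower, and the paired log2 differences were 3.42, 2.04, 3.52 and 1.08 for the pairs in the same order, with an exact sign-flip p of 0.125, the smallest for 4 pairs. The adipocyte covariate gave 24 members higher and 7 lower.

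The depth of 16017565 counts or more puts all members but Eif3j2 above a mean of 50 counts in at least 1 group. The main limits are the scaling between libraries of unlike composition, reads that map to several genes (left out by the authors), a counting whose use of strand is not stated, and controls whose treatment is not stated for the libraries.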

Other observations

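Mitochondria translate their own mRNAs with separate factors encoded in the nucleus. Of 10 such genes, 5 (50%) were lower and none was higher with edgeR or DESeq2, beside 21.1% and 23.6% of all genes with edgeR. Their median log2 fold change was -0.36, where 0.065 was the median of all genes (-0.43 relative to that median with library totals alone). Directions here are relative to the median gene. The elongation factors Gfm1 (-0.54, SE 0.0832, adjusted p = 0.00032) and Tufm (-0.53, SE 0.0966, adjusted p = 0.00094), the recycling factor Gfm2 (-0.77, SE 0.0755, adjusted p = 1.6e-05), Guf1 (-0.41, SE 0.105, adjusted p = 0.0073) and the release factor Mtrf1l (-0.55, SE 0.141, adjusted p = 0.0074) were called, while Tsfm (0.25) and the initiation factors Mtif2 (-0.21) and Mtif3 (0.17) were not. At an unadjusted p under 0.05, 8 of the 10 passed, 7 of them lower. Among all 14012 genes 8910 passed, 4113 of them lower. Tufm went from 102.5 ± 11.1 to 70.9 ± 7.11 CPM (SD, n = 4).

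A list of enzymes that modify translation factors also holds Eefsec, the elongation factor for selenocysteine (0.55, adjusted p = 0.0026). It gave 5 of 10 genes (50%) higher, Eefsec among them, and 1 (10%) lower, with a median of 0.53. Of all genes 23.6% were higher and 21.1% lower. Of the genes for diphthamide, the modified histidine of eEF2, Dph5 (1.26), Dph6 (0.90) and Dph7 (0.60) were higher, and Dph1, Dph2, Dph3 and Dnajc24 were not called. Relative to the median gene, the 2 enzymes of hypusine synthesis on eIF5A went in opposite directions. Dhps was higher (0.58, adjusted p = 0.00044) and Dohh lower (-0.24, adjusted p = 0.0098, just under the threshold). Of 10 reference genes of the integrated stress response 9 (90%) were higher, where 23.6% of all genes were. Among the 9 were Atf4 (1.26) and Trib3 (6.98), and Chac1 was not called (-1.15, adjusted p = 0.020).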
